A study of Danio rerio with 4 samples.

Results

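The genes described here encode the enzymes of the lysosome, the proteins of its membrane and the pump that acidifies it, and were measured in coronary endothelial cells, which line the vessels of the zebrafish heart. They were chosen by symbol alone, as the cathepsins and other peptidases, the glycosidases and a sulfatase, the lipid hydrolases and their activator, the membrane proteins and channels, and the subunits of the vacuolar proton pump. The symbols matched 71 of the 20306 genes in the deposited table, all annotated as protein coding, and 67 of the 71 reached a value of 10 in at least 2 libraries and were tested. No row carried the symbol lipa, a lysosomal lipase that the choice also names.

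Bulk RNA sequencing compared 2 sorted populations of wild-type ventricles, taken 7 days after part of the ventricle had been frozen (cryoinjury), damage that zebrafish repair with new muscle. Cells positive for a red reporter driven by a fragment of the flt1 promoter, active in coronary endothelium, were split by a yellow reporter of the chemokine receptor gene cxcr4a into a positive and a negative gate. The groups are called Regenerating and Non-Regenerating, as the deposited table heads them, with 2 libraries each. The labels do not pair these headings with the gates, and Regenerating was taken as the positive gate from knowledge of the reporter. Both groups share genotype, injury and time, the ages of the fish are not given in the labels, and an uninjured group was not analysed here. The labels do not tie replicates to separate fish, so the p-values rest on a spread between libraries that may be technical only. Each library was amplified from about 5 ng of total RNA.

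A lysosome breaks down material that reaches it by endocytosis, phagocytosis or autophagy. The vacuolar proton pump keeps its inside acid, acid-dependent hydrolases digest protein, sugar chains and lipid, and heavily glycosylated membrane proteins line its inner face. Endothelial cells use this route for what they take up from the blood, and macrophages are especially rich in it, so that the same genes are active in both cell types.

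The normalized counts summed to between 10481747 and 10761712 per library, and the reads behind them were estimated at 9741978 to 11583307. Endothelial markers were present in all 4 libraries, and none of the 21 was at 0. They summed to 94171 and 102061 in Regenerating, against 108839 and 114051 in Non-Regenerating, with 4 above 0 in log2 fold change and 17 below. Both Regenerating libraries were below both others for 9 of the 21, or 42.9%, beside 21.5% of all genes tested. They were above both for 1, or 4.76%, beside 21.8%. The cdh5 gene, which encodes a junction protein of endothelium, read 11674 and 11643 normalized counts in Regenerating, against 11920 and 12629 in Non-Regenerating. Markers of other cells were present in both groups, with summed levels that differed between libraries. The 24 macrophage and monocyte markers found summed to 9507 and 10515 in Regenerating and to 8060 and 4528 in Non-Regenerating. None was at 0 in any library, and 20 of the 23 tested lay above 0 in log2 fold change. Both Regenerating libraries were above both others for 12 of the 23, or 52.2%, beside 21.8% of all genes tested. They were below both for 2, or 8.7%, beside 21.5%. The 3 markers of this list with the highest mean included lcp1, an actin-bundling protein of leukocytes, at 2585 and 2950 in Regenerating, against 1626 and 1892 in Non-Regenerating. The other 2 were mpeg1.2, a perforin-like gene, at 306 and 326 in Regenerating against 1584 and 473 in Non-Regenerating, and lygl1, a lysozyme-like gene, at 647 and 794 in Regenerating against 592 and 513 in Non-Regenerating. The 16 cardiomyocyte markers summed to 56146 and 21232 in Regenerating, against 9002 and 4713 in Non-Regenerating. The 10 neutrophil markers summed to 8688 and 8818 in Regenerating against 6670 and 6882 in Non-Regenerating. Most of these sums came from adam8a, srgn and il6r. Of the 8 tested, 6 lay above 0 in log2 fold change and 2, il6r and srgn, below. The cxcr1 gene read 319 and 600 in Regenerating against 11 and 0 in Non-Regenerating. For lect2l the values were 471 and 718 in Regenerating against 33 and 3 in Non-Regenerating. Low counts kept mpx and npsn untested. The mpx gene read 1 and 3 in Regenerating against 9 and 4 in Non-Regenerating. The npsn values were 0 and 3 in Regenerating against 11 and 2 in Non-Regenerating. These genes are named after their values were seen. The 8 lymphoid markers summed to 200 and 166 in Regenerating against 120 and 42 in Non-Regenerating. For the 14 epicardial and fibroblast markers the sums were 36975 and 38098 in Regenerating against 50006 and 44472 in Non-Regenerating. Of these 14, 5 lay above 0 in log2 fold change and 9 below. Thrombocyte and erythrocyte markers (7 found) summed to 184 and 70 in Regenerating against 878 and 85 in Non-Regenerating. Of the 878, 802 came from f13a1a.1 alone, which read 5 and 17 in Regenerating against 802 and 11 in Non-Regenerating. The itga2b gene of this list read 154 and 19 in Regenerating against 37 and 23 in Non-Regenerating. Both genes are named after their values were seen. The part of all these other cell types in the lysosomal values was not tested. In sorted bulk RNA, fewer cells of a type and less RNA per cell cannot be told apart.

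The lysosomal genes as a whole read nearly alike in the 2 groups. Their summed level was 74018 and 77599 normalized counts in Regenerating, against 75464 and 74377 in Non-Regenerating, or 0.694% and 0.74% of the library totals in Regenerating, against 0.701% and 0.704% in Non-Regenerating, and the groups overlapped. The median log2 fold change of the 67 tested genes, Regenerating minus Non-Regenerating, was 0.030, with 38 above 0 and 29 below, beside a median of 0.0013 over all 16928 genes tested. The absolute log2 fold change was under 0.5 for 54 of the 67, or 80.6%, beside 67.8% of all genes tested. These genes are also well covered, with a median mean of 832.5 normalized counts against 248.6 over all genes tested. Among genes with a mean of at least 200, it was under 0.5 for 47 of 52 lysosomal genes, or 90.4%, beside 82.0% of 9230 genes. The 95% interval of the log2 fold change stayed within a doubling or halving (-1 to 1) for 47 of the 67 lysosomal genes, or 70.1%, beside 41.5% of all genes tested. Among genes with a mean of at least 200, it did so for 46 of 52 lysosomal genes, or 88.5%, beside 69.7% of 9230 genes. The median SE was still smaller there for the lysosomal genes, at 0.176 against 0.216. That cut therefore does not make the 2 sets equal in precision, and no match on level was made.

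**Figure D1:**
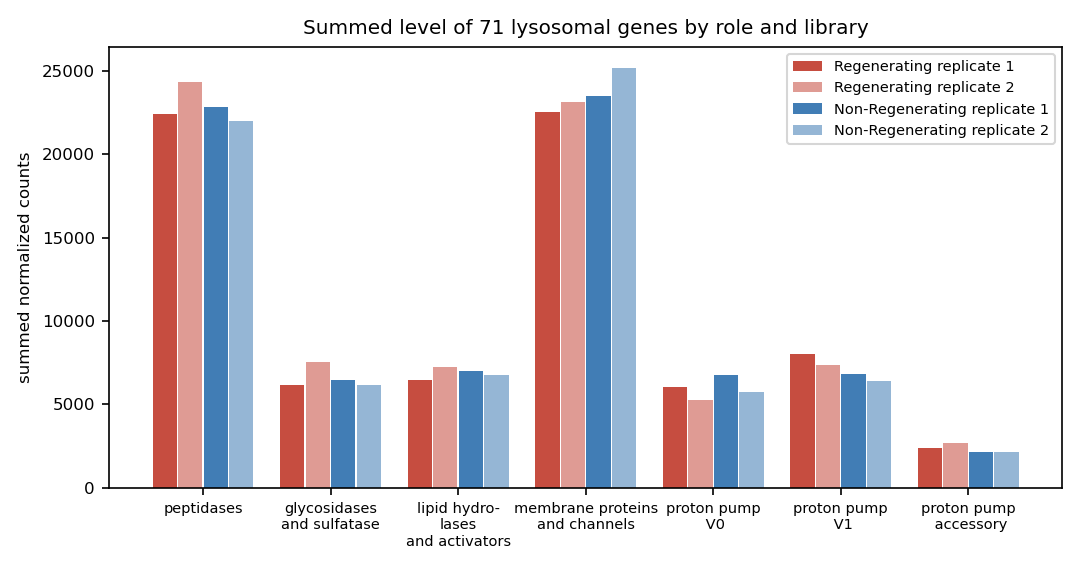
Summed normalized counts (vertical axis) of the 71 lysosomal genes in each role class, with 1 bar per library, Regenerating libraries in red and Non-Regenerating libraries in blue. Only the V1 sector and the accessory proteins of the proton pump were above both Non-Regenerating libraries in both Regenerating libraries. Only the membrane proteins were below, a class that includes npc2, whose product is soluble. Values of different genes are not divided by transcript length.

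No lysosomal gene passed the test across all genes: with limma and Benjamini-Hochberg adjustment, 0 of 67 had an adjusted p under 0.05, where 0.00591% of all genes tested did. At an unadjusted p under 0.05, 5 of 67 were higher in Regenerating, or 7.46%, beside 7.62% of all genes tested. These were mcoln1a, gusb, ctsa, ctsd and atp6v1c1b. One gene, lamp1a, was lower at that level, or 1.49%, beside 5.19% of all genes tested. Both shares of lysosomal genes are near or under the background. Both Regenerating libraries were above both Non-Regenerating libraries for 15 of 67 genes, beside 21.8% of all genes tested. They were below both for 11, beside 21.5%. Of the 11, atp6v0a2a reached the filter only through the Non-Regenerating libraries, so that its direction was fixed by entry. Without it, both Regenerating libraries were above both others for 15 of 66 and below both for 10, or 22.7% and 15.2%. Of all genes tested without such genes, 20.3% and 20.8% were. At an unadjusted p under 0.05, 5 of these 66 were higher and 1 lower, or 7.58% and 1.52%. Beside these stand 6.61% and 4.7% of all genes tested without such genes. The count of 5 was 2 when either Regenerating replicate or Non-Regenerating replicate 2 was left out, and the count of 1 was 0 when either Regenerating replicate was left out. With 1 library left out at a time, the log2 fold change turned its direction in 30 of the 67 genes and moved by over 1.5 times in 58. The values of mcoln1a, gusb, ctsa, ctsd, mcoln1b, lamp2, scarb2c, atp6v0b and atp6v1c1a did neither.

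**Figure D2:**
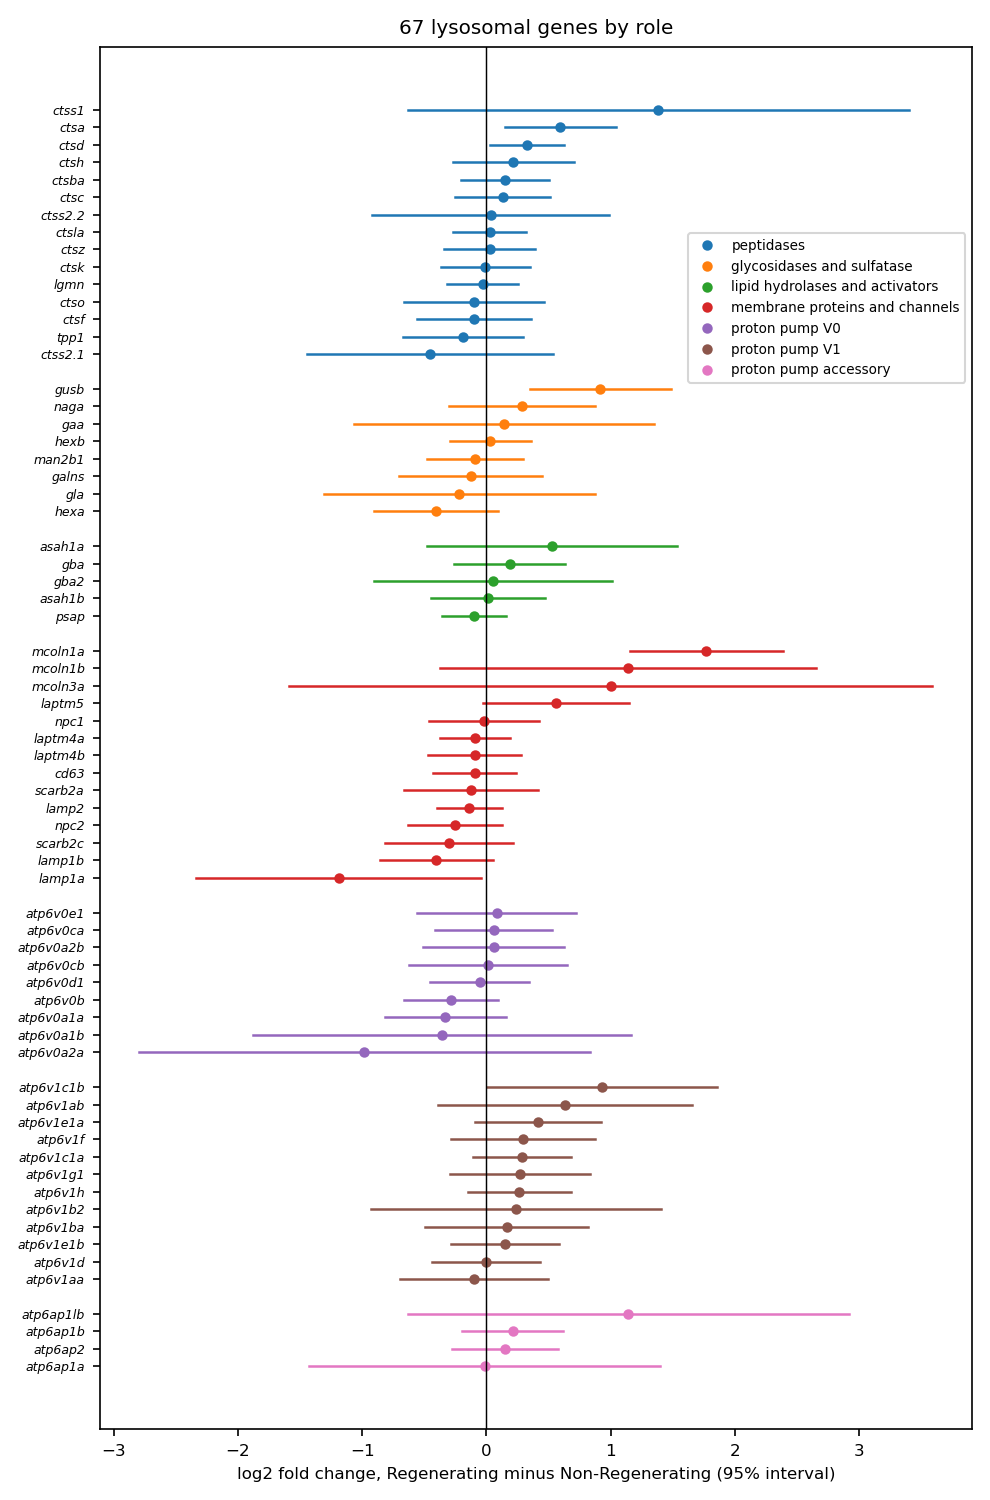
Log2 fold change, Regenerating minus Non-Regenerating, of each of the 67 tested lysosomal genes (horizontal axis), with lines for the 95% interval from limma and colours for the role class. Most points lie near 0, and the intervals of mcoln1a, gusb, ctsa, ctsd and atp6v1c1b lie above 0 and that of lamp1a below, before adjustment for the number of genes.

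Among the membrane proteins and channels, the calcium channel gene mcoln1a had the largest log2 fold change of the 67 genes tested. It encodes mucolipin 1, a channel of the lysosomal membrane whose calcium release in mammalian cells is linked to activation of the transcription factor TFEB. Its value was 712 and 983 normalized counts in Regenerating, against 229 and 261 in Non-Regenerating, so that both Regenerating libraries were well above both others. It was 3.41-fold higher, with a log2 fold change of 1.77 (SE 0.241, 95% interval 1.15 to 2.39, unadjusted p = 6.85e-04), and did not pass adjustment (limma, Benjamini-Hochberg adjusted p = 0.16). The gene (ENSDARG00000002285) lies on chromosome 1 from 45671687 to 45700574 in danRer11. Its copy mcoln1b read 19 and 23 in Regenerating, against 10 and 8 in Non-Regenerating, with an interval from -0.37 to 2.65 at these low counts. The related channel gene mcoln3a read 11 and 15 in Regenerating against 15 and 2 in Non-Regenerating, and mcoln2, at 11 and 5 in Regenerating against 8 and 0 in Non-Regenerating, was not tested.

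Over the class of 14 tested membrane genes, both Regenerating libraries were below both others for 6, or 42.9%, beside 21.5% of all genes tested. They were above both for 3, or 21.4%, beside 21.8%. The 6 below include npc2, which was placed in this class although its product is soluble. The 3 lamp genes were among those below, and none passed adjustment. The lamp1 and lamp2 genes encode the proteins that coat the inner face of the lysosomal membrane. The value of lamp1a was 133 and 90 in Regenerating, against 359 and 175 in Non-Regenerating, without overlap but with a gap set mainly by Non-Regenerating replicate 1. Its log2 fold change was -1.19 (SE 0.449, interval -2.34 to -0.04, unadjusted p = 0.0448, adjusted p = 0.376), and -0.67 without that library. The gene (ENSDARG00000100181, chromosome 1, 176583 to 182258) overlaps an annotated gene on the opposite strand, and reads of the 2 cannot be told apart if counting ignored strand, which is not given in the sources used here. Its copy lamp1b read 986 and 789 in Regenerating, against 1220 and 1114 in Non-Regenerating (log2 fold change -0.40, interval -0.86 to 0.06, and -0.24 without Regenerating replicate 2). Well covered in every library, lamp2 read 3207 and 3313 in Regenerating against 3554 and 3624 in Non-Regenerating, a difference of -0.14 with an interval of -0.40 to 0.12.

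None of the other membrane genes had an unadjusted p under 0.05. The scarb2a gene encodes a membrane protein that in mammals carries glucocerebrosidase to the lysosome. It read 5958 and 6298 in Regenerating, against 5401 and 8251 in Non-Regenerating, where the Non-Regenerating replicates lie on either side of the Regenerating ones. Its relative scarb2c read 307 and 326 in Regenerating against 381 and 398 in Non-Regenerating. The product of npc2, a soluble protein, hands cholesterol to that of npc1 in the lysosomal membrane for export. The npc1 values were 2600 and 2555 in Regenerating against 3040 and 2257 in Non-Regenerating, and those of npc2 were 1047 and 1181 in Regenerating against 1357 and 1295 in Non-Regenerating, and only those of npc2 did not overlap. The tetraspanin gene cd63, a marker of late endosomes, read 1791 and 1966 in Regenerating against 1928 and 2085 in Non-Regenerating. The transmembrane genes laptm4a and laptm4b had log2 fold changes of -0.092 and -0.093. Their relative laptm5, which in mammals is mostly expressed in blood cells and stands on the macrophage list used here, read 507 and 485 in Regenerating, against 387 and 291 in Non-Regenerating (log2 fold change 0.56, interval -0.03 to 1.15, adjusted p = 0.412, and 0.36 without Non-Regenerating replicate 2). The macrophage list lay mostly above 0, but its counts and sums given above include laptm5 itself. The part of macrophages in this value was not tested. Over the class of 14 tested genes the median was -0.094, with 10 below 0 and 4 above, of which 3 are mucolipins and 1 is laptm5. Of the 3 mucolipins, mcoln1b and mcoln3a are at low counts. The log2 fold change of mcoln3a was -0.21 without Non-Regenerating replicate 2.

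**Figure D3:**
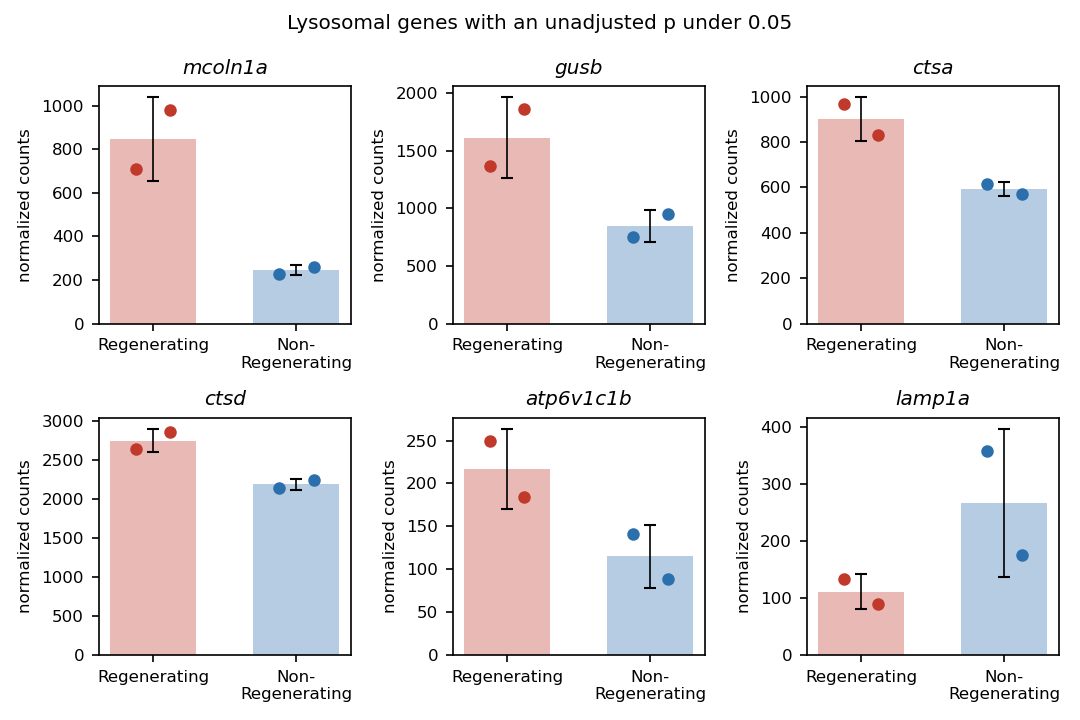
Normalized counts (vertical axis, from 0) of the 6 lysosomal genes with an unadjusted p under 0.05, by group; points are libraries, bars are means and lines are ± SD (n = 2 each). For mcoln1a, gusb, ctsa, ctsd and atp6v1c1b both Regenerating libraries lie above both Non-Regenerating libraries, and for lamp1a they lie below.

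Of the glycosidases, which trim sugars from glycoproteins, glycolipids and matrix chains, gusb differed most. It encodes beta-glucuronidase, which removes glucuronic acid from the ends of glycosaminoglycans. Its value was 1367 and 1862 in Regenerating, against 752 and 949 in Non-Regenerating, without overlap. It was 1.89-fold higher (log2 fold change 0.92, SE 0.222, interval 0.35 to 1.48, unadjusted p = 0.00875) and did not pass adjustment (limma, adjusted p = 0.219). The gene (ENSDARG00000063126) lies on chromosome 5 from 2066262 to 2112030. The hexosaminidase genes hexa and hexb encode the subunits of the enzymes that cut terminal hexosamines, among them that of ganglioside GM2. The hexa values were 657 and 772 in Regenerating, against 1053 and 848 in Non-Regenerating (log2 fold change -0.41, interval -0.90 to 0.09, and -0.25 without Non-Regenerating replicate 1). The hexb values were 1803 and 1948 in Regenerating against 1897 and 1777 in Non-Regenerating, with an interval of -0.30 to 0.36, so that its groups overlapped while those of hexa did not. The alpha-mannosidase gene man2b1 read 1304 and 1522 in Regenerating, against 1575 and 1430 in Non-Regenerating (interval -0.48 to 0.30). The galactosidase-type genes gla and naga, the acid glucosidase gene gaa, which degrades glycogen, and the sulfatase gene galns had log2 fold changes between -0.22 and 0.28, all with overlapping groups. In gaa and gla the Non-Regenerating values lay between the Regenerating ones, at 77 and 155 in Regenerating against 121 and 81 in Non-Regenerating for gaa, and at 79 and 160 in Regenerating against 134 and 128 in Non-Regenerating for gla. The median of the 8 genes was -0.031, and 0.19 without Regenerating replicate 1.

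The peptidases cut proteins delivered to the lysosome, and 2 of the 15 tested were higher in Regenerating at an unadjusted p under 0.05, or 13.3%, beside 7.62% of all genes tested, and 0 were lower, beside 5.19%. The ctsa gene encodes cathepsin A, a carboxypeptidase that in humans also protects beta-galactosidase and neuraminidase 1 in a complex. It read 969 and 832 in Regenerating, against 616 and 573 in Non-Regenerating, 1.51-fold higher without overlap (log2 fold change 0.59, SE 0.175, interval 0.15 to 1.04, unadjusted p = 0.0186, adjusted p = 0.286). Its partners in that complex, which lie outside the chosen set, gave 324 and 274 in Regenerating against 190 and 219 in Non-Regenerating for glb1 and 564 and 616 in Regenerating against 600 and 695 in Non-Regenerating for neu1, with adjusted p of 0.455 and 0.84. The ctsd gene encodes cathepsin D, the main aspartic protease of the lysosome. It read 2646 and 2860 in Regenerating, against 2143 and 2244 in Non-Regenerating, a small but non-overlapping gap (1.25-fold, log2 fold change 0.33, SE 0.117, unadjusted p = 0.0378, adjusted p = 0.36). In danRer11, ctsa (ENSDARG00000098114) lies on chromosome 6 from 55396807 to 55423220 and ctsd (ENSDARG00000057698) on chromosome 18 from 16133595 to 16146081.

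None of the remaining peptidases had an unadjusted p under 0.05. The lgmn gene encodes legumain, which cuts after asparagine and processes other cathepsins. It read 4032 and 4388 in Regenerating, against 4088 and 4518 in Non-Regenerating, a log2 difference of -0.031 with an interval of -0.32 to 0.25. The cysteine protease gene ctsla (2353 and 2521 in Regenerating against 2414 and 2367 in Non-Regenerating) had an interval of -0.27 to 0.32. The collagen-cleaving protease gene ctsk, which is also a marker of osteoclasts, read 1929 and 2230 in Regenerating, against 2190 and 1988 in Non-Regenerating, with an interval of -0.37 to 0.35. Of the osteoclast-like list of 8 genes found, 4 were tested, and the other 4, among them acp5a and acp5b, stayed under 10 in every library. Of the 4 tested, 2 lay above 0 in log2 fold change and 2 below. The tnfrsf11a gene read 1107 and 1153 in Regenerating against 884 and 654 in Non-Regenerating. For nfatc1 the values were 1768 and 2033 in Regenerating against 3225 and 2472 in Non-Regenerating. Both genes are named after their values were seen, and neither passed adjustment. The genes ctsba, ctsc, ctsf, ctsh, ctso, ctsz and tpp1 had log2 fold changes between -0.19 and 0.21, and of these only ctsba did not overlap, at 1721 and 1820 in Regenerating against 1702 and 1492 in Non-Regenerating. The cathepsin S genes are known from antigen processing in leukocytes and were low or variable. The tandem copies ctss2.1 and ctss2.2 read 410 and 300 in Regenerating against 674 and 342 in Non-Regenerating, and 154 and 165 in Regenerating against 209 and 116 in Non-Regenerating, and reads may be shared between such copies. The third copy, ctss1, read 16 and 27 in Regenerating, against 13 and 4 in Non-Regenerating, with an interval of -0.63 to 3.40. The genes ctsl.1 (1 and 9 in Regenerating against 1 and 11 in Non-Regenerating) and ctsll (9 and 0 in Regenerating against 0 and 1 in Non-Regenerating) were not tested.

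The lipid-degrading enzymes and their activator held no gene with an unadjusted p under 0.05. The psap gene encodes prosaposin, the precursor of the saposins that present sphingolipids to their hydrolases. It read 3720 and 3952 in Regenerating, against 4056 and 4160 in Non-Regenerating, lower in both libraries with a log2 difference of -0.10 (interval -0.36 to 0.16). The glucocerebrosidase gene gba read 967 and 1122 in Regenerating against 990 and 844 in Non-Regenerating (interval -0.26 to 0.63). Acid ceramidase is encoded by 2 copies. The asah1a values were 289 and 442 in Regenerating, against 183 and 335 in Non-Regenerating, and those of asah1b were 1291 and 1609 in Regenerating against 1557 and 1309 in Non-Regenerating, with intervals of -0.48 to 1.54 and -0.45 to 0.47. The table names gba2 a non-lysosomal and gba3 a cytosolic enzyme, so these 2 matched by symbol only. The gba2 values were 180 and 132 in Regenerating against 191 and 116 in Non-Regenerating, and gba3, at 7 and 11 in Regenerating against 4 and 4 in Non-Regenerating, was not tested. The median log2 fold change of the 5 tested genes was 0.050, which is the value of gba2 itself.

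The proton pump has a membrane sector, V0, that carries protons, and a peripheral sector, V1, that hydrolyses ATP. No gene of either sector passed adjustment, and 1 of 12 V1 genes was higher in Regenerating at an unadjusted p under 0.05, or 8.33%, beside 7.62% of all genes tested. The 12 V1 genes summed to 7993 and 7361 normalized counts in Regenerating, against 6839 and 6405 in Non-Regenerating, and the 9 V0 genes to 6051 and 5280 in Regenerating against 6748 and 5713 in Non-Regenerating, so that the V1 sums did not overlap and the V0 sums did. The median log2 fold change was 0.27 over V1, with 10 genes above 0 and 2 below, and -0.053 over V0, with 4 above and 5 below. For V0 it was -0.17 without Regenerating replicate 1. Its direction turned when Non-Regenerating replicate 1 was left out (0.031) and with a filter of 50 in place of 10 (0.013). In 6 of the 12 V1 genes both Regenerating libraries were above both others, beside 21.8% of all genes tested, and in 0 they were below, beside 21.5%. In V0 they were above in 0 of 9 and below in 3, of which atp6v0a2a entered the test only through the Non-Regenerating libraries, so that its direction was fixed by entry. Without it they were below in 2 of 8, or 25%, beside 20.8% of all genes tested without such genes. The V0 subunit a genes tcirg1b and tcirg1a did not match the symbols and are not in these counts. The tcirg1b gene read 952 and 936 in Regenerating against 700 and 786 in Non-Regenerating. For tcirg1a the values were 40 and 57 in Regenerating against 24 and 36 in Non-Regenerating, also without overlap. Both are named after their values were seen. A difference between the sectors was not tested.

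Within V1, the gene atp6v1c1b had the lowest unadjusted p. It encodes a copy of subunit C, which joins the sectors and controls their assembly. It read 250 and 184 in Regenerating, against 141 and 89 in Non-Regenerating (1.91-fold, log2 fold change 0.93, SE 0.362, interval 0.01 to 1.86, unadjusted p = 0.049, limma adjusted p = 0.388). The log2 fold change was 0.60 without Non-Regenerating replicate 2. The gene (ENSDARG00000035880) lies on chromosome 19 from 32947910 to 32966762. The other copy, atp6v1c1a, read 881 and 930 in Regenerating against 726 and 758 in Non-Regenerating, also without overlap. The ATP-hydrolysing subunit A has the copies atp6v1aa (651 and 495 in Regenerating, against 684 and 542 in Non-Regenerating) and atp6v1ab (257 and 198 in Regenerating against 200 and 105 in Non-Regenerating). Subunit B is given by atp6v1ba (1154 and 871 in Regenerating against 1078 and 744 in Non-Regenerating) and atp6v1b2 (129 and 68 in Regenerating against 67 and 94 in Non-Regenerating). These 4 genes overlapped between groups. Of the stalk and rotor subunits, atp6v1e1a read 840 and 770 in Regenerating against 532 and 681 in Non-Regenerating and atp6v1d 989 and 889 in Regenerating against 866 and 1023 in Non-Regenerating. The genes atp6v1e1b, atp6v1f, atp6v1g1 and atp6v1h had log2 fold changes between 0.15 and 0.30. The annotated span of atp6v1e1b overlaps that of ada2b on the same strand, so that reads may be shared.

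Within V0, the large subunit a gene atp6v0a1a read 1491 and 1226 in Regenerating, against 1925 and 1500 in Non-Regenerating (log2 fold change -0.33, interval -0.82 to 0.16). The value was -0.15 when Non-Regenerating replicate 1 was left out, -0.51 when Non-Regenerating replicate 2 was, and -0.19 when Regenerating replicate 2 was. The proteolipid gene atp6v0b, a part of the proton-carrying ring, read 1130 and 1008 in Regenerating against 1344 and 1265 in Non-Regenerating (-0.29, interval -0.67 to 0.09). Both were lower in each Regenerating library, with adjusted p of 0.561 and 0.514. The ring gene atp6v0ca read 1102 and 1006 in Regenerating against 1143 and 894 in Non-Regenerating, its copy atp6v0cb 558 and 430 in Regenerating against 557 and 423 in Non-Regenerating, and the stalk gene atp6v0d1 976 and 919 in Regenerating against 1041 and 927 in Non-Regenerating. All 3 overlapped. The copies atp6v0a1b (16 and 11 in Regenerating against 15 and 20 in Non-Regenerating) and atp6v0a2a (9 and 7 in Regenerating against 11 and 25 in Non-Regenerating) were at low counts, where an interval of -2.79 to 0.83 for atp6v0a2a leaves the difference undetermined. The genes atp6v0a2b and atp6v0e1 had log2 fold changes of 0.058 and 0.082.

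The accessory proteins guide assembly of the pump. The atp6ap1b values were 1271 and 1526 in Regenerating, against 1155 and 1254 in Non-Regenerating, higher in both libraries (log2 fold change 0.21, interval -0.20 to 0.62), with 0.34 without Regenerating replicate 1 and 0.079 without Regenerating replicate 2. The atp6ap2 gene, which encodes the prorenin receptor, read 1030 and 918 in Regenerating against 934 and 822 in Non-Regenerating. The low copy atp6ap1a read 20 and 15 in Regenerating against 18 and 17 in Non-Regenerating. The related gene atp6ap1lb read 64 and 204 in Regenerating, against 36 and 73 in Non-Regenerating, where replicate 2 was above replicate 1 in both groups and the groups overlapped (log2 fold change 1.14, interval -0.63 to 2.91). It was 1.97 when Regenerating replicate 1 was left out, 0.31 when Regenerating replicate 2 was, and 0.64 when Non-Regenerating replicate 1 was.

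Zebrafish carries 2 copies of many of these genes, and the share of counts taken by each copy of a pair can be compared between libraries without regard to gene length. The copy atp6v1ab took 28.3% and 28.6% of the counts of its pair with atp6v1aa in Regenerating and 22.6% and 16.2% in Non-Regenerating. The copy atp6v1c1b took 22.1% and 16.5% in Regenerating against 16.3% and 10.5% in Non-Regenerating, without overlap but with a narrow gap. The copy lamp1a took 11.9% and 10.2% of its pair with lamp1b in Regenerating, against 22.7% and 13.6% in Non-Regenerating. Between genes of 1 enzyme family, hexa took 26.7% and 28.4% of the hexa and hexb counts in Regenerating and 35.7% and 32.3% in Non-Regenerating. The share of atp6v0cb in its pair with atp6v0ca stayed nearly the same, at 33.6% and 29.9% in Regenerating against 32.8% and 32.1% in Non-Regenerating. Some other pairs varied more between libraries, such as asah1a with asah1b, where asah1a took 18.3% and 21.6% in Regenerating against 10.5% and 20.4% in Non-Regenerating. These shares were not tested.

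**Figure D4:**
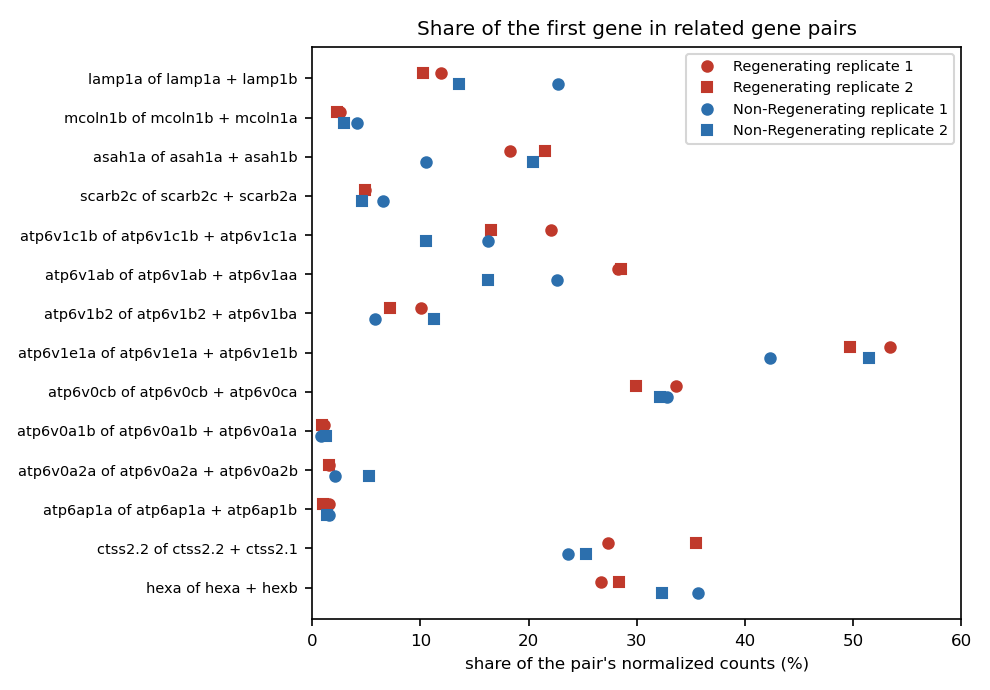
Share of the first-named gene in the summed normalized counts of 14 pairs of related genes (horizontal axis, percent), with circles for replicate 1 and squares for replicate 2, Regenerating in red above Non-Regenerating in blue. The shares of atp6v1ab and atp6v1c1b lie higher in both Regenerating libraries and those of lamp1a and hexa lower, as do the small shares of mcoln1b and atp6v0a2a. The share of ctss2.2 lies higher, at 27.3% and 35.5% in Regenerating against 23.7% and 25.3% in Non-Regenerating, and the other pairs overlap.

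Replicates of a group differed by a median absolute log2 of 0.23 in Regenerating and 0.24 in Non-Regenerating over the 67 genes, beside 0.31 and 0.36 over all genes tested. The median absolute log2 fold change was 0.19. It compares means of 2 libraries and the replicate difference compares single libraries, so the 2 are not on the same scale. In 6 of 9 V0 genes the first library was above the second in both groups, beside 33.6% of all genes tested. The second was above the first in both groups for 1 of 9, beside 31.4%. For the membrane proteins these counts were 5 and 6 of 14, and for the accessory proteins 2 and 2 of 4. In the glycosidases, 8 of 8 genes were higher in the second library of Regenerating, and 2 of 8 were in Non-Regenerating. Over all 16928 genes tested, the first library was the higher for 8379 in Regenerating and for 8732 in Non-Regenerating.

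A list of genes of the lysosome outside the chosen set held regulators, sorting receptors, further hydrolases and fusion factors, of which 79 of 89 names were found and 76 were tested. No gene passed adjustment with limma. At an unadjusted p under 0.05, 10 of 76 were higher, or 13.2%, beside 7.62% of all genes tested, and 0 were lower, beside 5.19%. Both Regenerating libraries were above both others for 25 of 76, or 32.9%, beside 21.8%, and below both for 3, or 3.95%, beside 21.5%. Of these genes mitfb and dnase2b (30 and 24 in Regenerating against 9 and 1 in Non-Regenerating) entered the test only through the Regenerating libraries, so that their direction was fixed by entry; dnase2b is named after its values were seen. Without them 8 of 74 were higher at that level, or 10.8%, beside 6.61% of all genes tested without such genes, and both Regenerating libraries were above both others for 23, or 31.1%, beside 20.3%. Leaving out Regenerating replicate 2 gave a count of 3 in place of 10, and leaving out Non-Regenerating replicate 2 gave 6. The median log2 fold change was 0.13. The high value of gpnmb was known when the list was made, so the list is not independent evidence of its direction.

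The genes of smallest p in this list were of several kinds. The glycoprotein gene gpnmb, a target of the MiT/TFE family in mammals, read 3390 and 4646 in Regenerating, against 110 and 15 in Non-Regenerating (adjusted p = 0.161). The sorting receptor gene sort1b, which in mammals carries some hydrolases from the Golgi, read 566 and 740 in Regenerating against 139 and 34 in Non-Regenerating (9.26-fold, adjusted p = 0.197), while its copy sort1a read 192 and 241 in Regenerating against 436 and 191 in Non-Regenerating. The lipid transporter gene abca2 read 314 and 368 in Regenerating against 98 and 149 in Non-Regenerating (2.80-fold, adjusted p = 0.195). The ribonuclease gene rnaset2 read 1940 and 2277 in Regenerating against 1417 and 1442 in Non-Regenerating and the late endosome adaptor gene plekhm1 330 and 375 in Regenerating against 192 and 192 in Non-Regenerating, with adjusted p of 0.236 and 0.242. In these 5 genes both Regenerating libraries were above both others.

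The MiT/TFE transcription factors switch on lysosomal genes in mammals, and none of their genes passed adjustment here. The tfeb gene read 211 and 94 in Regenerating, against 51 and 30 in Non-Regenerating (log2 fold change 1.82, SE 0.548, unadjusted p = 0.0204, adjusted p = 0.295). The mitfb gene read 28 and 27 in Regenerating against 5 and 2 in Non-Regenerating. The genes tfe3a (503 and 556 in Regenerating against 568 and 528 in Non-Regenerating), tfe3b (136 and 124 in Regenerating against 155 and 116 in Non-Regenerating) and tfec (136 and 242 in Regenerating against 81 and 152 in Non-Regenerating) overlapped between groups, and mitfa, at 12 and 5 in Regenerating against 8 and 2 in Non-Regenerating, was not tested. Beside these values, 20 of the 23 tested macrophage markers lay above 0 and 3 below, mpeg1.2, mrc1a (78 and 60 in Regenerating against 255 and 127 in Non-Regenerating) and csf1rb (19 and 8 in Regenerating against 19 and 14 in Non-Regenerating), the last 2 named for this direction, and the part of these cells in the result was not tested.

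**Figure D5:**
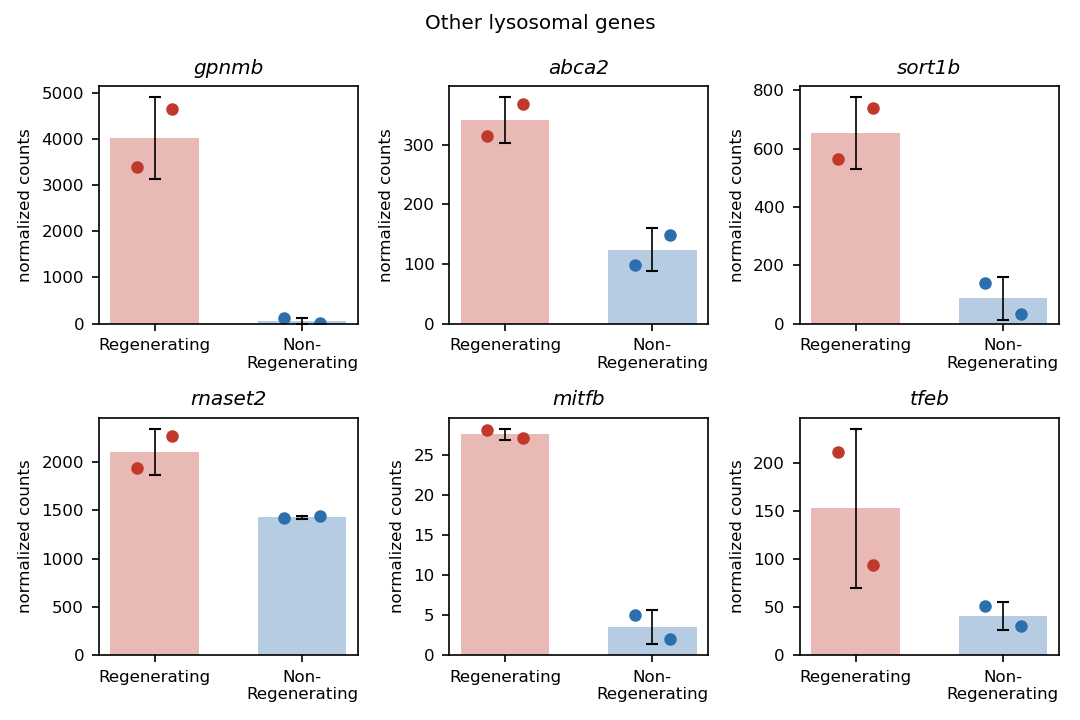
Normalized counts (vertical axis, from 0) of 6 lysosomal genes outside the chosen set, by group; points are libraries, bars are means and lines are ± SD (n = 2 each). Shown are gpnmb, abca2, sort1b and rnaset2, of small p, and the MiT/TFE genes mitfb and tfeb. In each panel both Regenerating libraries lie above both Non-Regenerating libraries, which follows in part from this choice. Over the list they did so for 25 of 76 genes, or 32.9%, beside 21.8% of all genes tested. The mitfb gene is at low counts and entered the test only through the Regenerating libraries.

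The lysosomal genes are spread over 23 of the 25 chromosomes in the table, and 46 of the 71 carry the KEGG term Lysosome in the deposited annotation, as do 125 genes in all. The 45 tested genes with that term had a median log2 fold change of -0.013. The annotated spans of 14 of the 71 overlap another gene of the table, 13 on the opposite strand only.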

How the data were processed

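The deposited table holds normalized gene counts rounded to whole numbers by the authors, recorded here as a score because they are neither raw counts nor a rate. The build was danRer11, and the tools were DESeq2 1.36.0, featureCounts 2.0.4, Picard 3.1.1, STAR 2.7.11a and Trimmomatic 0.39, per the submitters' processing notes, which as used here do not state their roles. Regular steps among low values gave the worth of 1 read as 0.9205 to 1.0844, from which reads were estimated. Reads carry no molecular identifiers, so they are not independent molecules.

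The 16928 genes that reached 10 in 2 or more of the 4 libraries were taken as log2(value + 1), which understates folds of low genes, and fitted in R 4.3.3 by limma 3.58.1 with empirical Bayes and a variance trend, after a test on simulated data. P-values were adjusted by Benjamini-Hochberg over all genes tested. Intervals are 95% intervals of that fit, without adjustment. The members and lists were chosen with earlier results of these data known. Named in full were members with an unadjusted p under 0.05, the 2 of highest mean and the 2 of largest change per role class, and outside the set the MiT/TFE genes, gpnmb and the 6 genes of smallest p. Other members were also named, since all were chosen by symbol. Values are not divided by transcript length, so levels are not compared between genes. Alternatives were a replicate block, other filters, pseudocount and scalings, no variance trend, and each library left out. Promoter and protein sequences were not used here.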

Additional observations from a re-analysis of the deposited data

How the results depend on the processing

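No lysosomal gene passed adjustment under any alternative but the replicate block. Of 294 refitted log2 fold changes of 27 named genes, 280 kept their direction. The replicate block, the other filters and the missing variance trend leave the log2 fold change of a gene as it was. Those refits could not turn a direction, so the count of 280 overstates stability. The 14 that turned did so under quantile scaling or with a library left out. The numbers 1 and 2 are not said to mark shared fish, and deviations of same-numbered libraries correlated at 0.339 across genes. With the replicate block 357 of all genes passed adjustment and 3485 had an unadjusted p under 0.05. Of the lysosomal genes 2 passed, mcoln1a (adjusted p = 0.0274) and gusb (0.0428), and 8 were higher and 4 lower at an unadjusted p under 0.05. Without the variance trend 0 genes passed and 0 lysosomal genes were lower at that level. Quantile scaling gave a membrane protein median of -0.070, lgmn 0.038 and atp6v1d 0.011, and a filter of 50 gave an accessory protein median of 0.21 and a V0 median of 0.013.

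With 1 library left out, the lone library of its group is assumed to vary like the others. All genes passing were 0 to 0, at an unadjusted p 1147 to 2101, lysosomal genes higher 2 to 5 and lower 0 to 1, and other lysosomal genes higher 3 to 10 and lower 0 to 1 (these alternatives were chosen after seeing the data). Medians ran from -0.039 to 0.10 over all lysosomal genes, -0.24 to 0.19 for glycosidases, -0.16 to -0.066 for membrane proteins, -0.17 to 0.031 for V0, 0.22 to 0.31 for V1 and 0.16 to 0.21 for accessory proteins. Among the 27 named genes direction turned in 7: lgmn (-0.10 to 0.041), hexb (-0.026 to 0.085), man2b1 (-0.20 to 0.020), asah1b (-0.15 to 0.17), scarb2a (-0.43 to 0.18), atp6v1ba (-0.10 to 0.43) and atp6v1d (-0.13 to 0.11). The cause was not tested. Depth limits the low genes, such as mcoln3a (interval -1.59 to 3.59).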

Other observations

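A further 37 tested genes carry the KEGG term Lysosome and stand in neither set. At an unadjusted p under 0.05, 1 was higher in Regenerating, the trafficking adaptor gene gga3b (74 and 51 normalized counts in Regenerating, against 26 and 14 in Non-Regenerating, limma adjusted p = 0.325), and 0 were lower. These are 2.7% and 0%, beside 7.62% and 5.19% of all genes tested. The median log2 fold change was 0.10. The genes below were chosen after their values were seen. The tcirg1b gene, which encodes a further subunit a of the V0 sector known in mammals from osteoclasts, read 952 and 936 in Regenerating, against 700 and 786 in Non-Regenerating (log2 fold change 0.35, SE 0.160, adjusted p = 0.462), and its copy tcirg1a 40 and 57 in Regenerating against 24 and 36 in Non-Regenerating. The clathrin heavy chain gene cltca read 6427 and 6007 in Regenerating against 7633 and 6720 in Non-Regenerating, and the adaptor genes ap1g1 and ap1b1, of the complex that works with clathrin at the Golgi, read 915 and 973 in Regenerating against 1178 and 1166 in Non-Regenerating, and 3145 and 3220 in Regenerating against 3468 and 3690 in Non-Regenerating. None of these passed adjustment.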
